A study of Homo sapiens with 9 samples.

Results

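The 8 genes described here, NOX5, SIGLEC6, SMO, SOX5, EMX1, SPECC1, MAGED1 and ADGRA3, were each switched on or nearly off in a single clone of the leukaemia line K562. They were chosen by their measured level: in 1 of 9 libraries the CPM (reads of a gene scaled to a common library total) lay at least 8-fold above the highest or below the lowest of the other 8 libraries. Of 35744 gene IDs with a read in any library, 105 (0.294%) met this condition, and the 8 genes are a chosen part of those 105. NOX5 was high in clone P15 and SIGLEC6 in clone P22. SMO, SOX5, EMX1 and SPECC1 were low in P22, and MAGED1 and ADGRA3 were low in clone W42. As the levels chose the genes, they are given below as a description with no test.

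K562 is an erythroleukaemia line derived from chronic myeloid leukaemia, and the study compared splicing between CRISPR clones of this line with wild-type or mutant SRSF2, a serine- and arginine-rich splicing factor. The 9 libraries are the parental line, 4 clones in which SRSF2 is wild type (W19, W33, W36, W42, the WT clones) and 4 that carry SRSF2 P95H (P9, P15, P22, P38, the P95H clones). Polyadenylated RNA was sequenced, and each clone gave 1 library. The labels do not say whether clones came from separate editing events, so p-values measure only the spread between these libraries, and each value of a single clone describes that clone.

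A clone grows from a single cell, so a gene that is active or silent in the founder can stay so in all its descendants. Clones of one line are therefore known to differ in single genes beside any intended edit. The genes described here include an enzyme that makes reactive oxygen, 3 membrane receptors, 2 transcription factors, a cytoskeletal protein and an adaptor protein. They are known from different tissues: NOX5 from testis, vessel wall and lymphoid tissue, SIGLEC6 from placenta, mast cells and B cells, SMO from embryonic patterning, and SOX5 and EMX1 from cartilage and forebrain.

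The libraries held 24546255 to 35477328 reads assigned to genes, and 3 counts, the floor used below, corresponded to 0.0864 to 0.128 CPM. All 12 erythroid markers examined, among them GATA1, KLF1 and the embryonic and fetal globins, were above that floor in all 9 libraries, with a summed level of 3090 CPM in P22 to 7766 CPM in P15. SRSF2 itself lay between 429 and 583 CPM in all 9 libraries, and gene counts do not separate its alleles. Among markers of other cells, 4 monocyte markers summed to 16.2 to 60.7 CPM and 5 mast cell markers to 0.530 to 3.52 CPM, both highest in P22. Single genes carried these sums: in P22, HDC gave 3.12 CPM of the mast cell sum and 3 of its 5 markers were at 0. LYZ and ITGAM, at 32.5 and 27.7 CPM in P22, gave nearly all of the monocyte sum, and LYZ was higher in the parental line, at 38.3 CPM. The 9 trophoblast markers summed to 3.06 to 5.40 CPM, the 8 neural markers to 24.9 to 50.8 CPM and the 6 lymphoid markers to 4.83 to 31.7 CPM. The 12 markers of fibroblasts and epithelia summed to 417 to 1190 CPM, with 2 to 5 of them at 0. KRT8, KRT18 and EPCAM gave nearly all of this sum, at 723, 363 and 93.1 CPM in W33, where it was highest. COL1A1 stood at 1.03 to 9.83 CPM, and the rest were under 1 CPM in all 9 libraries. The part of other cell types in the results below was not tested.

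Promoter sequence is shown so that the genes can be compared by the density of CG dinucleotides before their start, a feature by which human promoters are commonly classed. RefSeq start sites matched 7 of the 8 genes, and 5 of these have a single listed start. Their 250 bases before the start are given 5′ to 3′ on the gene's strand (RefSeq, GRCh38.p14), with each CG in capitals.
NOX5: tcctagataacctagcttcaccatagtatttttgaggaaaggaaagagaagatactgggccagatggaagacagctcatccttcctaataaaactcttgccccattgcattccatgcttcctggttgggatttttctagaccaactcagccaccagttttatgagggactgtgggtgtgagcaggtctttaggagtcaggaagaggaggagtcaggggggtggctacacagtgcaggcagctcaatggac
SIGLEC6: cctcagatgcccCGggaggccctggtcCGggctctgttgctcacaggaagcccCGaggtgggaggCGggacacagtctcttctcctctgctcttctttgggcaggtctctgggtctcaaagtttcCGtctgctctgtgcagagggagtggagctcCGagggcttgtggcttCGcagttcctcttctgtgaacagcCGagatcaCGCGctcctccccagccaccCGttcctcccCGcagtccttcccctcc
SMO: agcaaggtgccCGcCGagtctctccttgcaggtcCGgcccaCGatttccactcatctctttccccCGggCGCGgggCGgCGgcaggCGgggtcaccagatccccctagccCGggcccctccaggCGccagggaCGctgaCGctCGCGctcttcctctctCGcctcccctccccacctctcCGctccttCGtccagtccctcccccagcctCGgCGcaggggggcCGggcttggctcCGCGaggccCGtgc
SOX5: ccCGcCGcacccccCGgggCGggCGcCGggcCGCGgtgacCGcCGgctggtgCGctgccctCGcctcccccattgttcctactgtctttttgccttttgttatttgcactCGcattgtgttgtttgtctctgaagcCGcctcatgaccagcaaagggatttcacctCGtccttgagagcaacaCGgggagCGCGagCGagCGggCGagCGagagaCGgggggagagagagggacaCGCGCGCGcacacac
ADGRA3: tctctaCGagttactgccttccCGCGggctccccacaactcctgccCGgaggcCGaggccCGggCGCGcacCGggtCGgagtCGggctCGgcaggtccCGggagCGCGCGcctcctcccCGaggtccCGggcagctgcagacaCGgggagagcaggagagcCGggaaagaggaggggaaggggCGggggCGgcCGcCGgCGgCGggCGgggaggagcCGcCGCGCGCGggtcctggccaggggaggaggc

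The windows lie at chr15:69014445-69014694 (plus strand) for NOX5, chr19:51531671-51531920 (minus strand) for SIGLEC6 and chr7:129188383-129188632 (plus strand) for SMO. They lie at chr12:24562492-24562741 (minus strand) for SOX5 and chr4:22516067-22516316 (minus strand) for ADGRA3. CG, whose reverse complement is again CG, occurred 0 times before NOX5, and all 35114 RefSeq windows of 250 bases hold at least that many. It occurred 12 times before SIGLEC6, and 48.51% of all windows hold at least as many. Before 3 genes that were low in 1 clone it was more frequent, with 25 CG for SMO, 27 for SOX5 and 32 for ADGRA3, counts reached by 21.62%, 17.69% and 9.52% of all windows. The 3 listed starts of SPECC1 had 26, 3 and 26 CG, and the 2 starts of MAGED1 had 6 and 17. The median of all windows was 11 CG, with quartiles of 3 and 23. These counts describe sequence only.

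NOX5 encodes a calcium-activated NADPH oxidase that makes superoxide without the cytosolic subunits its relatives need. In P15 it stood at 47.1 CPM (1511 reads, 95% Poisson interval 44.8 to 49.5 CPM, which like all such intervals here covers counting error only). Elsewhere, the parental line was at 0.950 CPM, W19, W33, W36 and W42 at 1.68, 0.893, 0.0646 and 0.110 CPM, and P9, P22 and P38 at 0.918, 1.61 and 0.536 CPM. Only P15 was high, and the other 3 P95H clones lay within the span of the WT clones. In bulk RNA, few cells with much of a transcript and many cells with little of it cannot be told apart. P15 exceeded the next library, W19, 28.0-fold and the median of the other 8 libraries 52.0-fold. Among those 8 the level was itself uneven, 26.0-fold from W36 to W19, at 2 to 53 reads a library.

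**Figure D1:**
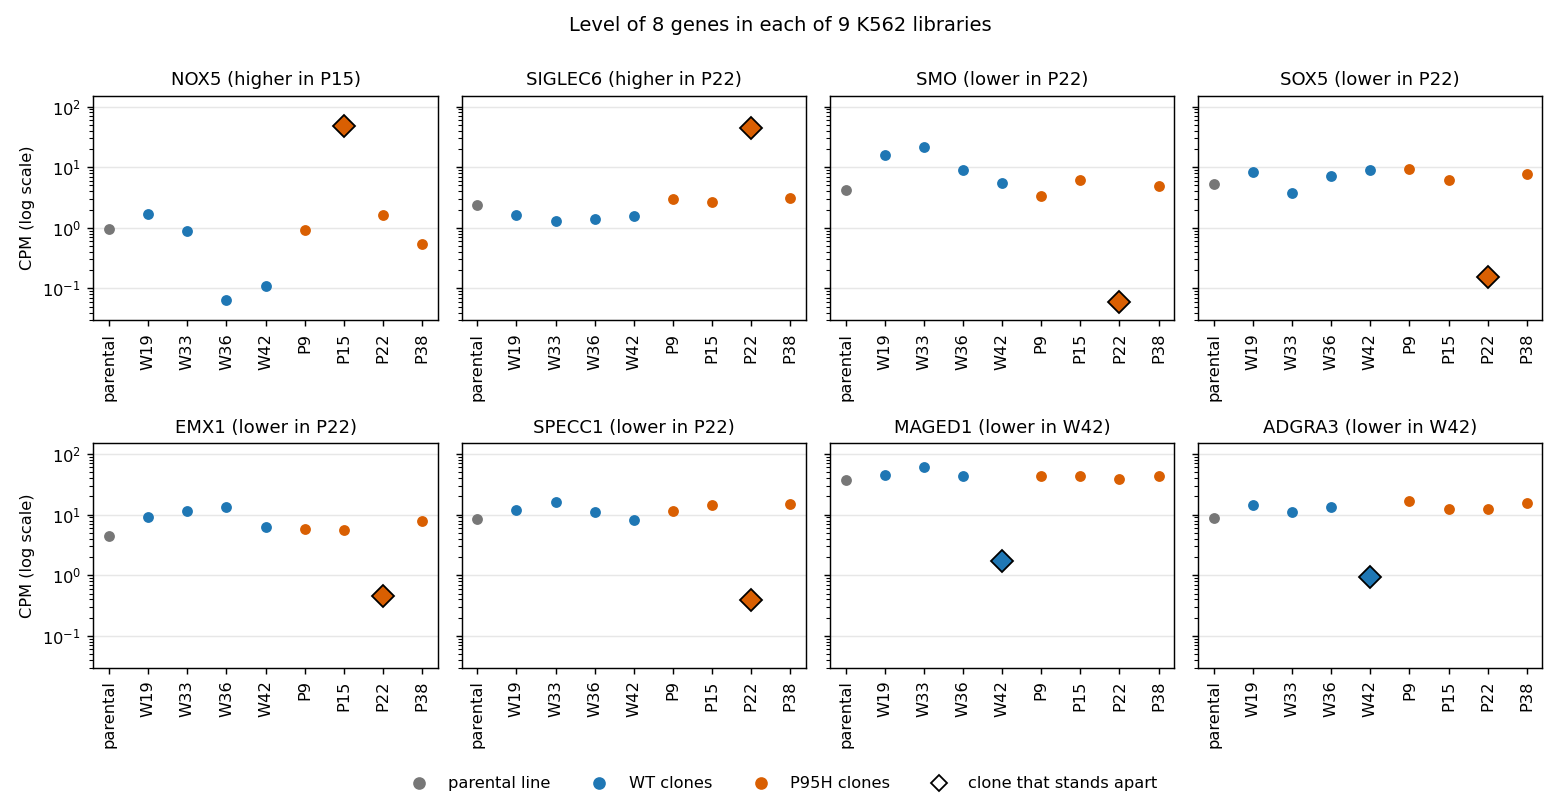
Level of each of the 8 genes in CPM (log scale) in the 9 libraries, 1 point per library, with the parental line, WT clones and P95H clones in separate colours and a diamond for the clone that stands apart. NOX5 in P15 (47.1 CPM) and SIGLEC6 in P22 (44.7 CPM) lie above, and the other 6 genes in their clone lie below, all remaining libraries.

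SIGLEC6 encodes a lectin of the cell surface that binds sialic acid and has been described to bind leptin. In P22 it stood at 44.7 CPM (1475 reads, 95% Poisson interval 42.4 to 47.0 CPM). Parental cells were at 2.42 CPM, the WT clones at 1.64, 1.28, 1.42 and 1.58 CPM in the order W19, W33, W36 and W42, and P9, P15 and P38 at 2.94, 2.65 and 3.15 CPM. Only P22 was high, 14.2-fold above P38 and 22-fold above the median of the other libraries. SIGLEC6 was the only one of the 8 genes whose P95H and WT clones did not overlap, and 8.45% of 18139 genes tested showed no overlap. Without P22, the P95H clones had 2.91 ± 0.251 CPM (SD, n = 3) and the WT clones 1.48 ± 0.165 CPM (SD, n = 4), with the parental line between them.

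SMO encodes the membrane protein that carries the Hedgehog signal into the cell once the receptor PTCH1 is bound by its ligand. P22 held 2 reads of it, or 0.0606 CPM, under the floor of 3 counts. Parental cells were at 4.23 CPM, W19, W33, W36 and W42 at 15.7, 21.4, 8.85 and 5.40 CPM, and P9, P15 and P38 at 3.29, 6.11 and 4.93 CPM. P22 was thus the only library in which SMO was nearly absent, at 1.05% of the median of the others. The lowest of the others, P9, exceeded it 54.2-fold, with a 95% counting interval of 15 to 448. Setting P22 to the floor, as the rule for choosing genes did, gives 36.2-fold. SMO also varied most among the 6 low genes in the libraries that expressed it, 6.50-fold from P9 to W33, and W19 and W33 were its highest libraries.

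SOX5 encodes a transcription factor with an HMG box that acts with SOX6 in cartilage and in neurons. P22 held 5 reads of it, or 0.152 CPM (95% Poisson interval 0.0492 to 0.354). Parental cells were at 5.24 CPM, W19, W33, W36 and W42 at 8.18, 3.70, 7.04 and 8.93 CPM, and P9, P15 and P38 at 9.44, 6.08 and 7.57 CPM. P22 stood at 2.07% of the median of the others and 24.4-fold below W33, the next lowest. Apart from P22 the P95H clones overlapped the WT clones.

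EMX1 encodes a homeobox transcription factor of the developing cerebral cortex. P22 held 15 reads, or 0.455 CPM (95% Poisson interval 0.254 to 0.750). The parental line was at 4.49 CPM, W19, W33, W36 and W42 at 9.06, 11.4, 13.4 and 6.25 CPM, and P9, P15 and P38 at 5.73, 5.55 and 7.74 CPM. The residual level in P22 was 6.50% of the median of the others and 9.88-fold below the parental line, the next lowest. This was a smaller gap than those of SMO, SOX5 and SPECC1 in the same clone.

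SPECC1 encodes cytospin B, a coiled-coil protein with a calponin homology domain. P22 held 13 reads, or 0.394 CPM (95% Poisson interval 0.210 to 0.674). The parental line was at 8.61 CPM, W19, W33, W36 and W42 at 11.9, 16, 10.9 and 8.27 CPM, and P9, P15 and P38 at 11.3, 14.6 and 15.1 CPM. P22 stood at 3.39% of the median of the others and 21.0-fold below W42, the next lowest, while those 8 libraries spanned only 1.93-fold.

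MAGED1 encodes an adaptor protein of the MAGE family that binds the neurotrophin receptor NGFR. W42 held 46 reads, or 1.69 CPM (95% Poisson interval 1.24 to 2.26). The parental line stood at 37.3 CPM, W19, W33 and W36 at 45.6, 62.0 and 44.2 CPM, and P9, P15, P22 and P38 at 42.9, 43.3, 38.9 and 44.0 CPM. It was the most evenly expressed of the 8 genes outside its clone, with 1.66-fold between the parental line and W33. W42 stood at 3.88% of the median of the others and 22.1-fold below the parental line.

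ADGRA3 encodes an adhesion G protein-coupled receptor, also called GPR125, with a role in WNT signalling. W42 held 25 reads, or 0.919 CPM (95% Poisson interval 0.595 to 1.36). The parental line stood at 8.87 CPM, W19, W33 and W36 at 14.7, 11.2 and 13.5 CPM, and P9, P15, P22 and P38 at 16.9, 12.5, 12.5 and 15.4 CPM. W42 stood at 7.05% of the median of the others and 9.65-fold below the parental line. MAGED1 and ADGRA3, on chromosomes X and 4, were both at their lowest in W42 and next lowest in the parental line.

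In P22 the condition was met by 46 genes, 35 higher (0.0979% of all) and 11 lower (0.0308%), more than in any other library, and 5 of them are described here. W33 followed with 22 genes, of which none is described here. P15 had 11 genes, 7 higher (0.0196%) and 4 lower (0.0112%). W42 had 8, of which 3 were higher (0.00839%) and 5 lower (0.014%). The remaining 5 libraries had 1 to 6 genes each. The genes nearest to the limit of 8-fold were KIT at 8.05-fold and POTEF at 8.03-fold just inside, both in P22, and VNN2 at 7.84-fold in P22 and PDE9A at 7.79-fold in W33 just outside.

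**Figure D2:**
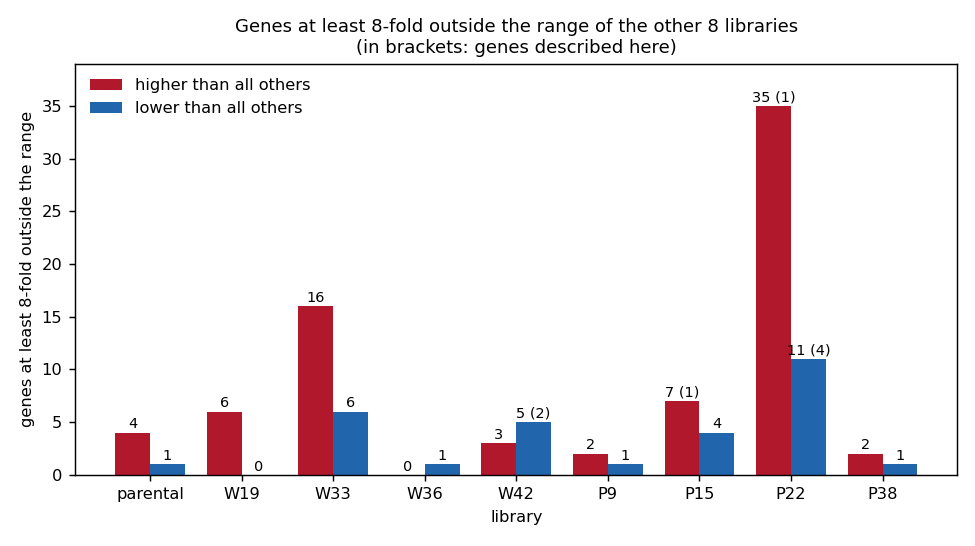
Number of genes (vertical axis) at least 8-fold above (one colour) or below (the other colour) all remaining libraries, for each of the 9 libraries, with the number of genes described here in brackets. P22 had the most, 35 higher and 11 lower, and W36 the fewest, 1 in all.

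The same condition named other genes in each clone, given as a description. In P15, EYA1, a transcriptional coactivator and phosphatase, stood at 2.71 CPM against 0 to 0.0288 CPM elsewhere, and SLC4A1, the anion exchanger of the red cell membrane, at 12.2 CPM against 0.219 to 1.49 CPM. KRT12, a keratin of the cornea, was low there, at 0.0935 CPM against 1.30 to 11.9 CPM. In P22, PTPRC, the leukocyte phosphatase CD45, showed the largest gap of all 105 genes, at 0.182 CPM against 22.1 CPM in W33 to 195 CPM in W36. Of the genes high in P22, CYP17A1, an enzyme of steroid synthesis, stood at 8.73 CPM and ACP3, prostatic acid phosphatase, at 25.1 CPM, while the highest other libraries held 0.194 and 0.969 CPM. AURKC, a kinase of meiosis, stood at 29.7 CPM against at most 1.45 CPM, COL5A1, a collagen chain, at 4.79 CPM against at most 0.173 CPM, and CYP4F3, a leukotriene hydroxylase, at 2.24 CPM against at most 0.0935 CPM. In W42, HCLS1, a cortactin-like protein of blood cells, stood at 1.07 CPM against 34.1 to 68.7 CPM. ANO5 had no read in W42 against 1.27 to 8.04 CPM, and TRAM1L1 and SGCZ, at 1.51 and 1.10 CPM there, were at or under 0.0864 CPM elsewhere.

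Neighbouring genes were not used to choose the 8 genes and could be tested. For each gene the 5 nearest expressed genes on either side in annotation order were taken (average over the 9 libraries of 1 CPM or more), 80 in all. Their level in the clone was compared with the other 8 libraries by edgeR's quasi-likelihood test over all 20592 genes kept, with Benjamini-Hochberg adjustment and a threshold of 0.05. Of the 80, 1 passed in the direction of its gene, an antisense gene at SIGLEC6, and 0 passed in the other direction. For comparison, the share of all genes called higher was 0.0728% in P15 and 0.602% in P22, and the share called lower was 0.155% in P22 and 0.0194% in W42. Of the 80 neighbours, 59 lay within the range of the other 8 libraries, 13 above it and 8 below it. The clone lay above all others for 15.3% of all genes tested in P15, 14% in P22 and 9.95% in W42, and below all others for 11.5%, 10.9% and 10%.

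The count of 1 depended on the method and on single libraries. DESeq2 called 6 of the 80, all in P22 and in the direction of their gene: ENSG00000268777, SIGLEC10, TSPAN33, ST8SIA1, DYSF and CYP26B1. It also called more of all genes than edgeR, 404 in P22 (215 of them higher), so the edgeR shares above are not its background. With edgeR, 2 passed without the parental library (SIGLEC10 beside ENSG00000268777) and 2 without P9 (CYP26B1 beside it), and 0 passed when ENSG00000268777 was left out as overlapping its gene. The numbers of genes called were 15 in P15, 156 in P22 (0.758%) and 4 in W42, and leaving out 1 other library moved them to 5 to 93, 76 to 222 and 4 to 6.

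Around NOX5 on chromosome 15, 0 of 10 neighbours passed in P15, and their median difference was 0.09 on the log2 scale against -0.03 for all genes tested. ANP32A, a phosphatase inhibitor and the nearest neighbour on one side, stood at 252 CPM in P15 against 225 to 300 CPM. GLCE, an epimerase of heparan sulphate synthesis on the other side, stood at 12.8 CPM against 5.15 to 12.7 CPM (log2 difference 0.49, adjusted p = 0.818, edgeR). The coding gene SPESP1, whose annotation overlaps NOX5 on the same strand, had 0 reads in P15. P15 thus stood far apart at NOX5, while the expressed genes beside it did not pass the test.

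Around SIGLEC6 on chromosome 19, 1 of 10 neighbours passed in P22, and the median difference was 0.36 against -0.04 for all genes tested. The gene that passed, ENSG00000268777, is annotated antisense to SIGLEC6 and overlaps it. It reached the limit of 1 CPM only through P22, as the other 8 libraries averaged 0.967 CPM, and it met the 8-fold condition itself, so its call adds no independent support. It stood at 17.8 CPM in P22, at 1.45, 1.09 and 1.47 CPM in P9, P15 and P38, at 0.478 to 0.723 CPM in the WT clones and at 1.18 CPM in the parental line (log2 difference 4.17, adjusted p = 0.000807, edgeR). The library kit does not mark strand, so its reads and those of SIGLEC6 cannot be told apart. Of the 10 neighbours, 5 lay above all other libraries in P22, ENSG00000268777 among them, and 0 lay below. Of all genes tested, 14% lay above all other libraries in P22 and 10.9% below. ENSG00000268957, the nearest on the other side, stood at 1.36 CPM against 0.623 to 1.46 CPM. Of the remaining neighbours, SIGLEC10, an inhibitory receptor of B cells and macrophages, stood at 9.09 CPM in P22 against 1.5 to 4.35 CPM but missed the threshold (log2 difference 1.95, adjusted p = 0.0544, edgeR). SIGLEC8, known from eosinophils and mast cells, stood at 4.06 CPM against 1.01 to 2.24 CPM (log2 difference 1.27, adjusted p = 0.208, edgeR). HAS1, a hyaluronan synthase and the farthest neighbour on one side, went the other way, at 0.242 CPM against 0.110 to 4.25 CPM (log2 difference -3.29, adjusted p = 0.747, edgeR).

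Around SMO on chromosome 7, 0 of 10 neighbours passed in P22, with a median difference of -0.10. TSPAN33, a tetraspanin of erythroid progenitors and B cells directly beside SMO, stood at 0.303 CPM in P22, at 0.864 CPM in the parental line and at 2.41 to 10.4 CPM in the other clones. P22 was the lowest library, but the difference missed the threshold (log2 difference -3.66, adjusted p = 0.351, edgeR). AHCYL2 on the other side lay above all other libraries in P22, at 17.5 CPM against 8.76 to 14.4 CPM (log2 difference 0.43, adjusted p = 0.729, edgeR). ENSG00000243230, annotated antisense to SMO, had 0 reads in P22 and 0.259 to 2.08 CPM elsewhere, and its reads are likewise not separable from those of SMO.

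Around SOX5 on chromosome 12, 0 of 10 neighbours passed in P22, with a median difference of -0.24. ETNK1, an ethanolamine kinase, stood at 76.2 CPM against 59.8 to 91.3 CPM. BCAT1, an aminotransferase of branched-chain amino acids, stood at 151 CPM against 140 to 219 CPM. Both direct neighbours were thus within the range of the other libraries. ST8SIA1, a sialyltransferase of ganglioside synthesis, was lowest in P22 at 0.849 CPM against 1.91 to 5.21 CPM (log2 difference -1.86, adjusted p = 0.261, edgeR).

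Around EMX1 on chromosome 2, 0 of 10 neighbours passed in P22, with a median difference of -0.26 (0.03 over 10 genes on each side), and 4 of the 10 lay below all other libraries. SPR, sepiapterin reductase, stood at 29.6 CPM against 32.6 to 63.0 CPM, and SFXN5, a mitochondrial carrier, at 32.8 CPM against 23.6 to 36.7 CPM. CYP26B1, which degrades retinoic acid, stood at 0.394 CPM in P22 against 1.61 to 4.2 CPM and missed the threshold narrowly (log2 difference -2.89, adjusted p = 0.0598, edgeR). DYSF, the membrane repair protein dysferlin, stood at 2.21 CPM against 8.06 to 45.3 CPM (log2 difference -2.93, adjusted p = 0.370, edgeR).

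Around SPECC1 on chromosome 17, all 10 neighbours lay within the range of the other libraries in P22, with a median difference of -0.10. AKAP10, an anchoring protein of protein kinase A, stood at 16 CPM against 9.95 to 17.7 CPM, and the pseudogene UPF3AP2 at 8.24 CPM against 7.20 to 9.90 CPM. These 10 differed by -0.24 to 0.33 on the log2 scale. With neighbours down to a mean of 0.2 CPM, 3 of the nearest 10 (MFAP4, ALDH3A2 and USP32P3) lay below all other libraries and 1 (ENSG00000235546) above, and 0 passed the test. ALDH3A2, a fatty aldehyde dehydrogenase, stood at 0.0606 CPM against 0.173 to 1.91 CPM, and the pseudogene USP32P3 had 0 reads against 0.255 to 1.51 CPM.

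Around MAGED1 on the X chromosome, 0 of 10 neighbours passed in W42, with a median difference of 0.02 against -0.05 for all genes tested. CLCN5, a chloride transporter of endosomes, stood at 23.7 CPM against 16.2 to 35.3 CPM, and the pseudogene IPO7P1 at 6.58 CPM against 2.72 to 10.7 CPM. Around ADGRA3 on chromosome 4, 0 of 10 passed, with a median difference of 0.13. KCNIP4, a potassium channel partner, stood at 1.54 CPM against 0.840 to 2.18 CPM, and the pseudogene CDC42P6 at 106 CPM against 44.8 to 107 CPM. The direct neighbours of both genes were thus within the range of the other libraries. Taking 10 genes on each side, 1 of 160 passed, again ENSG00000268777.

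**Figure D3:**
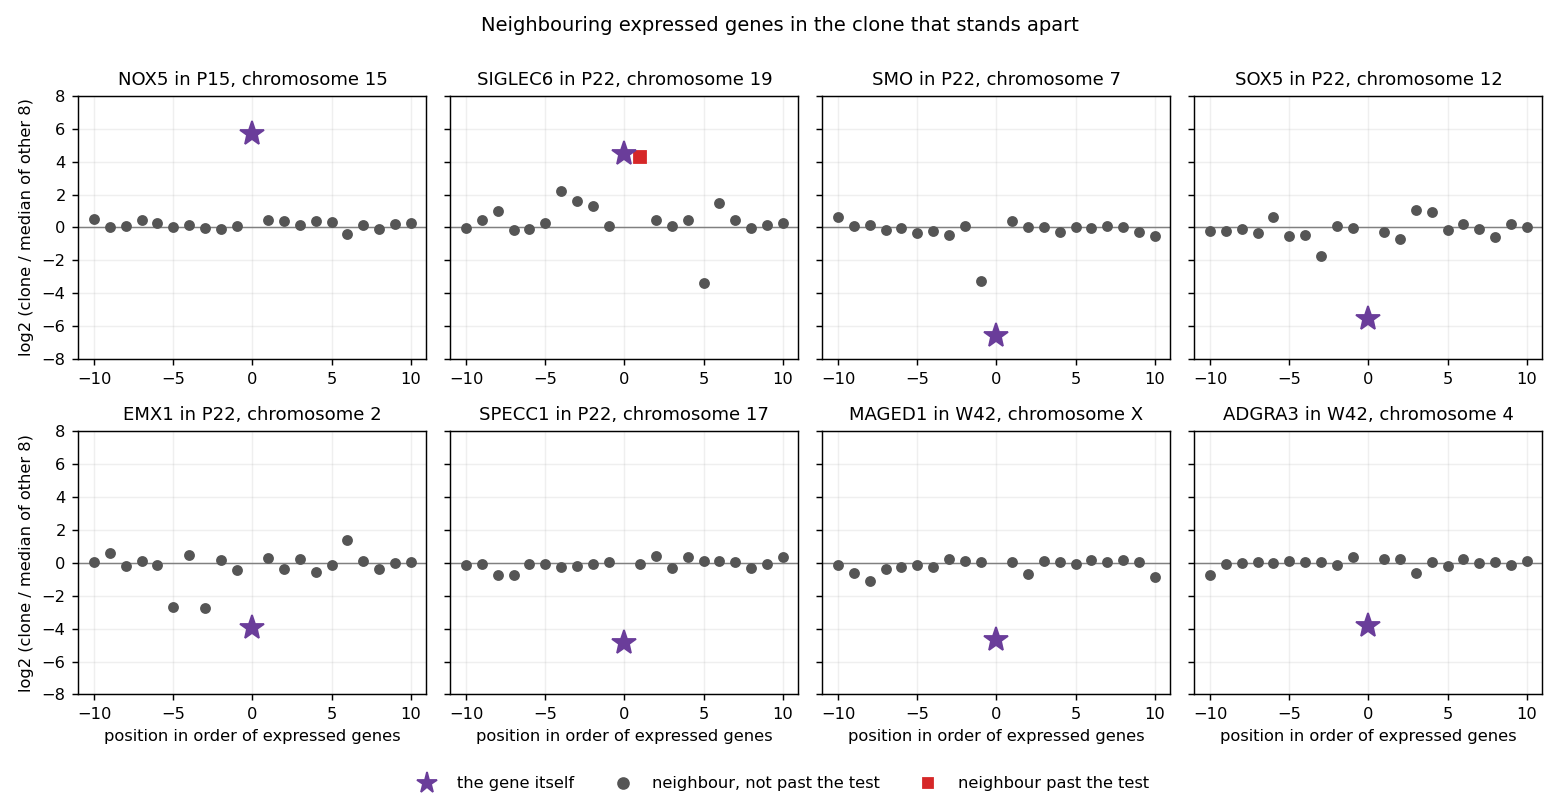
Ratio of the clone to the median of the other 8 libraries (log2, vertical axis) for each gene (star at 0) and its expressed neighbours by rank along the chromosome (horizontal axis, 10 on each side). The star stands far from 0, 59 of the 80 neighbours within 5 ranks lie inside the range of the other libraries, and TSPAN33, HAS1, DYSF and CYP26B1 lie far below 0. The square marks ENSG00000268777, the single neighbour past the test.

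The relatives of each gene were examined in the same fits, from lists of its family and pathway with 136 of 138 entries matched to a gene ID. Of these, 90 were expressed enough to be tested, of which 3 (SIGLEC14, SIGLEC9 and SIGLEC7) reached the filter's limit of 0.335 CPM only in the clone. In the test, 1 of the 90 was higher in the clone of its relative and 0 were lower. Of all genes tested, 0.0728% were called in either direction in P15, 0.758% in P22 (0.602% higher) and 0.0194% in W42. SIGLEC14, the gene that passed, encodes an activating receptor of myeloid cells and lies near SIGLEC6 on chromosome 19. It stood at 3.45 CPM in P22, at 0.191, 0.0623 and 0.101 CPM in P9, P15 and P38, at 0.0323 to 0.219 CPM in the WT clones and at 0.259 CPM in the parental line (log2 difference 4.49, adjusted p = 0.00380, edgeR). P22 was the only library high in it. SIGLEC14 was tested only because it is high in P22, and it met the 8-fold condition itself (13.3-fold), so its call adds no independent support. Without the parental library, SIGLEC10 and SIGLEC7 passed as well, 3 in all. DESeq2, which called 404 genes in P22, called SIGLEC10 and SIGLEC14 as higher and 2 relatives as lower, among them SOX6.

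Other receptors of this family on chromosome 19 were examined in P22 as well, and 9 of 12 stood above all other libraries. SIGLEC8 and SIGLEC10, already counted as neighbours of SIGLEC6, are among these 9. Of the 10 that were tested, 3 had passed the filter only through P22, which placed them above the others by construction. Of the remaining 7, 4 stood above all other libraries, where 14% of all genes tested did, and SIGLEC14 alone passed with all 9 libraries. CD33, a marker of myeloid progenitors, stood at 65.0 CPM in P22 against 29.3 to 50.6 CPM (log2 difference 0.60, adjusted p = 0.622, edgeR). SIGLEC9 stood at 0.879 CPM against 0.0368 to 0.268 CPM and SIGLEC7 at 0.424 CPM against 0 to 0.0864 CPM, and neither passed (adjusted p = 0.0942 and 0.136, edgeR). The monocyte markers summed above were also at their highest sum in P22, but they differed singly. ITGAM, at 27.7 CPM against 25.2 CPM in P15, and CSF1R, at 0.242 CPM, were highest in P22. LYZ was higher in the parental line, and CD14 stood at 0.303 CPM in P22 against 0.0382 to 0.536 CPM elsewhere. PTPN11 and PTPN6, the phosphatases that such receptors recruit, stood at 135 and 9.85 CPM in P22 against 74.3 to 150 and 6.19 to 9.10 CPM. LEPR, the leptin receptor, was lowest in P22, at 42.4 CPM against 56.5 to 127 CPM (log2 difference -1.19, adjusted p = 0.379, edgeR).

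**Figure D4:**
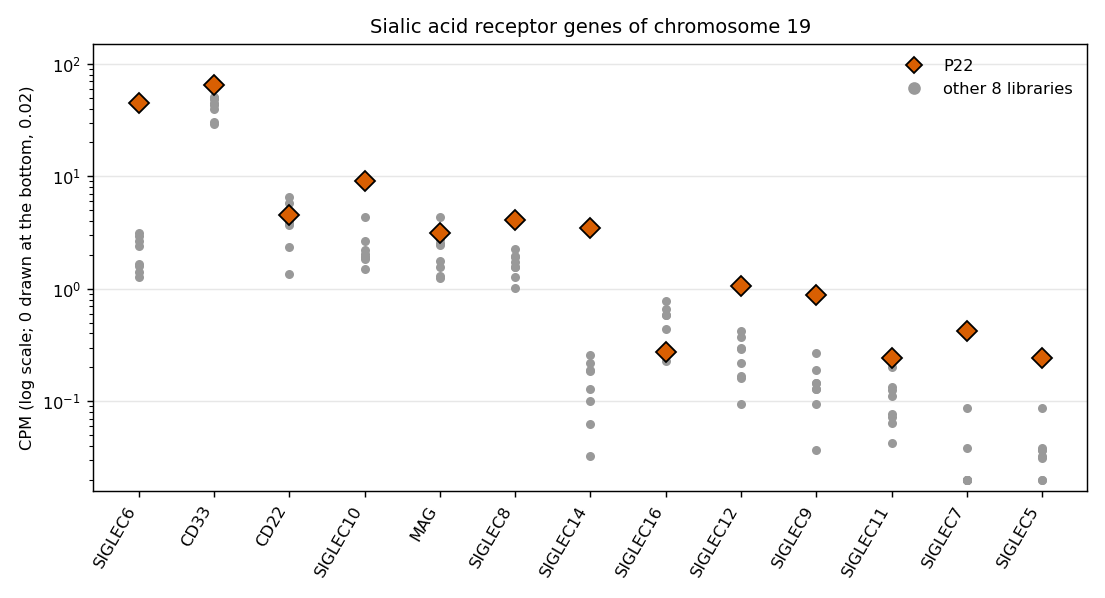
Level in CPM (log scale, 0 drawn at 0.02) of SIGLEC6 and the other sialic acid receptor genes of chromosome 19, with P22 as a diamond and the other 8 libraries as circles. P22 lies above the other libraries for SIGLEC6 and for 9 of the 12 other genes, and the test passed for SIGLEC14 among those 12.

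For NOX5 in P15, 0 of 11 tested NADPH oxidase genes passed, with a median difference of 0.18. CYBB, the oxidase of phagocytes, was highest in P15 at 2.65 CPM against 0.170 to 1.43 CPM (log2 difference 1.67, adjusted p = 0.450, edgeR). Of the most expressed partners of other oxidases, the GTPase RAC1 stood at 166 CPM against 137 to 159 CPM and CYBA, the membrane subunit, at 110 CPM against 93.1 to 190 CPM. RAC2 stood at 19.1 CPM against 14.4 to 29.9 CPM, and the organizer NOXO1 at 14.7 CPM against 14.8 to 22.8 CPM.

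For SMO in P22, 0 of 18 tested Hedgehog genes passed, with a median difference of -0.14. PTCH1 and GLI1, a receptor and a transcription factor that are themselves targets of the pathway, stood at 11.4 CPM against 8.55 to 18.4 CPM and at 1.85 CPM against 1.04 to 3.15 CPM. Both were thus within the range of the libraries with SMO. The most expressed members were kinases and an adaptor shared with other pathways. CSNK1A1 stood at 66.1 CPM against 44.5 to 86.3 CPM, PRKACA at 52.6 CPM against 44.6 to 76.4 CPM, SPOP at 53.8 CPM against 40.5 to 55.3 CPM and GSK3B at 33.9 CPM against 27.1 to 39.8 CPM.

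For SOX5 in P22, 0 of 9 tested SOX factors passed, with a median difference of -0.29. SOX6, which pairs with SOX5 and also acts in erythroid cells, was lowest in P22, at 2.06 CPM against 4.13 CPM in W33 to 10.4 CPM in P38 (log2 difference -1.78, adjusted p = 0.160, edgeR). SOX12 stood at 37.2 CPM against 31.9 to 52.3 CPM, SOX18 at 3.55 CPM against 3.16 to 6.81 CPM and SOX15 at 2.03 CPM against 1.45 to 3.52 CPM. For EMX1 in P22, 0 of 7 forebrain homeobox and related genes passed, with a median difference of -0.33. DLX1 stood at 18.4 CPM against 13.1 to 23.2 CPM, and PAX6 and OTX1 were lowest in P22, at 7.24 CPM against 7.91 to 17.0 CPM and at 5.15 CPM against 5.33 to 7.23 CPM.

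For SPECC1 in P22, 0 of 5 tested genes passed, with a median difference of -1.31. SPECC1L, its closest relative, was highest in P22 at 29.7 CPM against 20.8 to 28.0 CPM (log2 difference 0.28, adjusted p = 0.856, edgeR). The spectrins line the membrane of red and other cells. SPTAN1 lay below all other libraries, at 9.70 CPM against 15.8 to 62.5 CPM (log2 difference -1.58, adjusted p = 0.566, edgeR). SPTB at 29.2 CPM and SPTBN1 at 95 CPM were within the ranges of the others, 28.7 to 128 and 74.3 to 136 CPM. The summed erythroid markers were also at their lowest in P22, and their part in these values was not tested.

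For MAGED1 in W42, 0 of 7 tested genes of the MAGE list passed, with a median difference of -0.40. MAGED2, the closest relative, was lowest in W42 at 53.7 CPM against 59.9 to 118 CPM (log2 difference -0.56, adjusted p = 1, edgeR). MAGEF1 stood at 23.9 CPM against 26.1 to 46.0 CPM, MAGEH1 at 17.2 CPM against 15.2 to 44.1 CPM and the ubiquitin ligase PJA1 at 19.3 CPM against 11.9 to 29.1 CPM. For ADGRA3 in W42, 0 of 20 tested adhesion receptors and WNT coreceptors passed, with a median difference of -0.17. ADGRA2, its nearest relative, stood at 15.8 CPM against 16.1 to 28.2 CPM. ADGRV1 was highest in W42 at 56.7 CPM against 16.1 to 52.4 CPM, while ADGRE5 at 44.8 CPM, ADGRL1 at 37.5 CPM and the scaffold DLG1 at 57.9 CPM were within the ranges of the others.

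**Figure D5:**
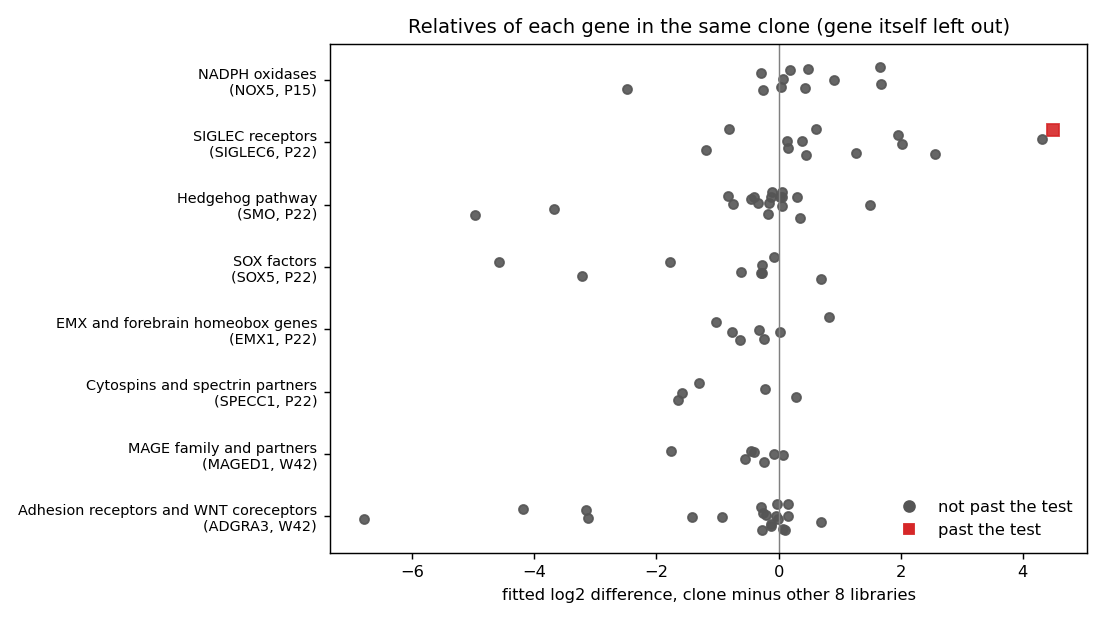
Fitted log2 difference of each clone from the other 8 libraries (horizontal axis) for the tested relatives of each gene, 1 row per gene and its list, with a square for a gene past the test and circles for the rest. SIGLEC14 in the SIGLEC row is the single square, at 4.49, and low-count genes give the widest values.

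Some genes followed the 8 genes across libraries, as measured by Pearson's r of log2 CPM over the 9 libraries among the 15624 genes that averaged 1 CPM or more. Each r rests mainly on the single clone that stands apart, and all genes share the same libraries and depths, so r is a description. SIGLEC6 was most like its antisense gene ENSG00000268777 (r = 0.99), APOBEC3G (0.99), a cytidine deaminase at 73.3 CPM in P22 against 2.01 to 6.08 CPM, and KDM1A (0.98), a histone demethylase at 622 CPM against 253 to 343 CPM. SMO and EMX1 shared their most similar genes: ENTPD2, which had 0 reads in P22 and 0.691 to 2.30 CPM elsewhere, with r of 0.98 for both, and ENSG00000251095, with 0.97 and 0.98. The third was NXPH4 for SMO (0.97) and UFSP2 for EMX1 (0.97).

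SOX5 was most like the mitotic kinase AURKA (r = 0.99), at 79.0 CPM in P22 against 99.5 to 109 CPM, the phosphatase PTPRC (0.98) and AKR1C2 (0.98). SPECC1 was most like GOLGA2P7 (r = 0.99), a pseudogene at 1.12 CPM in P22 against 3.90 to 5.49 CPM, and SEPTIN5 (0.96) was also near. MAGED1 and ADGRA3 were among each other's nearest genes (r = 0.97), together with LINC01524 (0.98 and 0.99) and HCLS1 (0.97 and 0.96). NOX5 had weaker likenesses, to ACE (r = 0.93), USP18 (0.93) and TRIM22 (0.93), the last at 8.45 CPM in P15 against 0.484 to 1.67 CPM.

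Between the P95H and WT clones as groups, 0 of 18139 genes passed edgeR's test (0%), 2129 had an unadjusted p under 0.05, and DESeq2 called 261. Without W19, edgeR called 1 gene. For the 8 genes the group difference is given with and without the clone that stands apart. The log2 difference, P95H minus WT, was 4.18 for NOX5 and 0.57 without P15, and 3.16 for SIGLEC6 and 0.96 without P22. For SMO and EMX1 most of the difference stayed without P22, from -1.86 to -1.45 and from -1.06 to -0.69. For 4 genes it was small either way, and for SOX5, SPECC1 and MAGED1 its sign turned: SOX5 went from -0.28 to 0.13, SPECC1 from -0.20 to 0.19, MAGED1 from 0.12 to -0.29 and ADGRA3 from 0.49 to 0.10. Without their clone, the SMO level was 12.8 ± 7.11 CPM (SD, n = 4) in WT and 4.77 ± 1.42 CPM (SD, n = 3) in P95H clones. W42, at 5.40 CPM, was the WT clone that fell within the span of those 3 P95H clones, 3.29 to 6.11 CPM.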

How the data were processed

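Polyadenylated RNA of 9 K562 cultures was sequenced, and the authors deposited raw counts of reads for each gene ID. TopHat2 2.0.4, HTSeq 0.6.1p1, bcl2fastq and GRCh37 are named in the submitters' processing notes, and Ensembl release 75 in the file labels. For strand and overlap, the counter's setting is not given in the sources used here, and the kit does not mark strand. The 5 summary values of each file entered neither library sizes nor tests. The counter assigned 47.6 to 49.1% of reads to no feature, which does not mean that they lie outside genes. A further 2.23 to 2.55% were ambiguous and 5.06 to 6.06% aligned more than once. The part of the strand setting in these shares was not tested. Symbols and gene order came from GENCODE 29 by gene ID (52524 of 63677 IDs placed), whose build differs, so no coordinates of the counted genes are given.

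Levels are CPM after TMM scaling over all 9 libraries. Each clone with a gene described here was compared with the other 8 libraries, and the 4 P95H with the 4 WT clones, by edgeR 4.0.16 in R 4.3.3 (filterByExpr, robust quasi-likelihood F test, Benjamini-Hochberg adjustment over all genes tested). A lone clone is assumed to vary like the other libraries. On simulated counts of 20133 genes, the test of 1 clone against 8 libraries recovered 100% of 8-fold and 12% of 2-fold changes. Each fold was given to 100 genes, and 7 unchanged genes were called as well. Among the measured neighbours in P22, fitted differences beyond 8-fold passed for ENSG00000268777 (log2 difference 4.17, adjusted p = 0.000807, edgeR). They missed the threshold for TSPAN33 (log2 difference -3.66, adjusted p = 0.351, edgeR) and for HAS1. Among measured neighbours, a fitted difference beyond 8-fold thus did not always pass. The recovery on simulated counts is not a rate for them, and their own rate was not tested. The log2 CPM values behind Pearson's r used a prior count of 2, while fold changes fitted by edgeR used its default.

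The 8 genes and the lists were chosen with earlier results of these data known. Named beside the 8 were, by rule, neighbours past the test or directly adjacent, up to 4 most expressed genes per list and those past the test, the 5 largest coding genes per clone and direction, and the 3 genes most like each, of which some are not reported here. SIGLEC8, SIGLEC10, HAS1, MFAP4, ALDH3A2, USP32P3, ENSG00000235546, SIGLEC7, SIGLEC9, TSPAN33, ST8SIA1, CYP26B1, DYSF, CYBB, PTCH1, GLI1, SPECC1L and ADGRA2 were added after their values were seen. Alternatives were DESeq2 1.42.0, RLE scaling, other filters, other limits for neighbours, a group term and each library left out.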

Additional observations from a re-analysis of the deposited data

Results flagged for a closer look

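Each named gene was examined for a clone far from the other 3 of its group, by the gap between the extreme clone and its nearest neighbour as a share of the whole range in CPM, with Dixon's 95% critical value for 4 samples as the limit. Of 198 groups of 4 over 100 genes, 36 were past the limit. Chance flags about 1 in 20 groups, but many of these genes, among them the 8, were named because a single clone stood apart, so the count is a description and no test. P22 was far above the other P95H clones for SIGLEC6 (0.988), ENSG00000268777 (0.977), SIGLEC10 (0.905), SIGLEC14 (0.962), SIGLEC7 (0.910), ADGRE5 (0.906), CYP17A1 (0.990), COL5A1 (0.965), ACP3 (0.995), AURKC (0.999), CYP4F3 (0.958), APOBEC3G (0.979), ENSG00000235546 (0.929) and SGCZ (1), the last at 2 reads and under the floor. P15 was far above them for NOX5 (0.977), EYA1 (1), SLC4A1 (0.909), ACE (0.831) and TRIM22 (0.868). P22 was far below them for ENSG00000251095 (0.853), AURKA (0.837) and GOLGA2P7 (0.872). P38 was far above them for TRAM1L1 (1), where its level was that of 1 read.

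Among the WT clones, W33 was far above the rest for RAC1 (0.937), NOXO1 (0.870), SOX12 (0.831) and AURKC (0.922) and far below for PTCH1 (0.977), DLG1 (0.922) and AKR1C2 (0.843). W42 was far above for TRAM1L1 (0.952) and SGCZ (0.923) and far below for SIGLEC9 (0.831). W36 was far above for ACP3 (0.939) and far below for SFXN5 (0.880), and W19 was far above for PTPN6 (0.989). The 6 genes that were low in 1 clone are not among these.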

How the results depend on the processing

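All 8 genes, chosen by the 8-fold condition, met it under each scaling and floor tried. With fewer libraries the range can hardly widen, so the count of 8 to 8 there shows no stability. Genes called in P15 numbered 15, and 4 with a filter of 1 CPM in 4 libraries, 1 with a term for each group, 375 with DESeq2 and 55 with no filter. Leaving out 1 library gave 5 to 93, with 93 without W33, 38 without P22, 25 without P9, 9 without W42, 8 without W36 or P38, 7 without W19 and 5 without the parental line. In P22 the count was 156, and 55, 88 and 404 with the stricter filter, the group terms and DESeq2. Leaving out 1 library gave 76 to 222, with 76 without W19, 81 without W36, 85 without W42 and 86 without P38. In W42 it was 4, with 7 by DESeq2 and 7 with no filter, and 4 to 6 without 1 library.

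Neighbours called in the direction of their gene numbered 1, and 2 with group terms, 6 with DESeq2, 3 with no filter and 0 with a limit of 5 CPM. Chosen after seeing the data, a limit of 0.2 CPM gave 2 (SIGLEC14 entering), and leaving out overlapping genes gave 0. Without 1 library the count was 1 to 2. Relatives called higher numbered 1, and 0 with the stricter filter, which drops SIGLEC14, 2 with group terms, 2 with DESeq2, 2 with no filter and 1 to 3 without 1 library. Relatives called lower numbered 0, and 1 with group terms, 2 with DESeq2 and 0 to 0 without 1 library. P95H against WT clones gave 0 genes, 261 with DESeq2, 2 with no filter and 0 to 1 without 1 clone. Shares of all genes called were computed only for the main edgeR fits. Counts of neighbours and relatives under DESeq2, other filters or group terms therefore have no background share beside them and are a description. Where no construction above accounts for a change, the cause was not tested. No paired analysis was possible because the clones of the groups share no replicate numbers. A count of 2 to 46 reads in the low clones limits how precisely their residual level is known.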
